A study of Drosophila melanogaster with 6 samples.

Results

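The Cpr genes encode cuticular proteins of Drosophila melanogaster that carry the Rebers and Riddiford consensus, a stretch that binds chitin. Their members were taken by symbol, as every gene of the RefSeq Release 6 (dm6) table whose symbol starts with Cpr and a digit. This gave 70 genes, all protein coding, of the 17684 genes on the 6 chromosome arms. Binding of 2 proteins, Simba2 and Simba1, was mapped by DamID in neural stem cells (NSCs) of the larval brain. One group carried UAS-Dam-Simba2, one UAS-Dam-Simba1 and the control UAS-Dam alone, each driven by grh-Gal4 and held back by tub-Gal80ts. In all 3 groups, eggs were laid over 4 h and spent 44 h at 18 °C and then 24 h at 29 °C before the brains were taken. Each group had 1 sample in each of 2 batches, and the data used were the peaks that the submitters had called in the 4 fusion libraries, with the Dam sample of the same batch as background. Libraries of 1 batch therefore share a control, and the cells compared are those of the brain in which grh-Gal4 is active; their purity was not measured.

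In DamID, the bacterial methylase Dam is fused to a protein of interest and marks GATC sequences near the sites that protein visits. Dam alone marks accessible DNA, and peaks are regions where the fusion gave more reads than Dam alone. Cuticular proteins are secreted by epidermal cells and, with chitin, build the layers of the larval, pupal and adult cuticle. Many of their genes sit in tandem arrays, and they are known for short bursts of expression at moults under ecdysone and its nuclear receptors. They are regarded as silent in neural cells; expression was not measured in these samples, so this was not tested.

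The libraries held 1069703 (Simba2 batch 1), 1267661 (Simba2 batch 2), 1191497 (Simba1 batch 1) and 1506081 reads (Simba1 batch 2) after the authors' filtering, against 868080 (batch 1) and 1321104 reads (batch 2) for Dam alone. The lists held 22479, 35237, 17254 and 21026 peaks in the same order of libraries. They had been written without a limit on q, the p-value adjusted by MACS within a list, so a listed peak can be weak. A gene was said to have a peak where a listed peak shared at least 1 bp with its span or the 1 kb on either side. Fold enrichment, pileup (coverage at the summit) and q are the authors' MACS values and are used only to describe and rank peaks within a list. The best peak of a gene in a library was the one with the lowest q. A best fold is the fold of that peak, and need not be the highest fold at the gene. Long genes collect more peaks, so each share is set beside that of other genes in the same 10 classes of span, called span-matched genes.

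The Cpr genes are short and crowded. Their median span was 1093.5 bp, with a range of 457 to 18590 bp, against a median of 1710 bp for all genes. Arm 3L held 35 of them, 2R held 21, 2L and 3R held 5 each, X held 4 and chromosome 4 held 0. With a gap of at most 10 kb between neighbours, 49 genes formed 13 clusters and 21 stood alone. Of the clusters, 2 had 7 genes, 4 had 4, 5 had 3 and 2 had 2. The widest gap inside a cluster was 7269 bp (Cpr49Ab to Cpr49Ac), and the next wider gap, 10516 bp between Cpr49Ad and Cpr49Ae, parted 2 clusters. The clustered genes had a median span of 941 bp and the isolated genes 1454 bp. The windows of 51 genes touched another gene, those of 15 touched another Cpr gene, and 7 spans lay inside another gene, so a peak at a Cpr gene need not belong to it.

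Peaks at Cpr genes were about as frequent as at genes of the same length, and more frequent in the Simba2 libraries than in the Simba1 libraries. In Simba2 batch 1, 36 of 70 Cpr genes had a peak (51.4%, 95% exact Clopper-Pearson interval 39.2 to 63.6), against 54.1% of span-matched genes and 58.9% of all genes. In Simba2 batch 2, 48 had a peak (68.6%, 56.4 to 79.1), against 72.6% of span-matched genes and 77.4% of all genes. In Simba1 batch 1 the count was 29 (41.4%, 29.8 to 53.8), against 46.0% of span-matched genes and 51.1% of all genes. In Simba1 batch 2 it was 30 (42.9%, 31.1 to 55.3), against 41.8% of span-matched genes and 46.6% of all genes. The share of span-matched genes lay inside the interval of the Cpr genes in all 4 libraries. These intervals cover counting error only, and neighbouring genes that share a peak are not independent.

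The share of Cpr genes with a peak averaged 60.0 ± 12.1% in Simba2 and 42.1 ± 1.01% in Simba1 libraries (SD, n = 2 each). The difference of 17.9 percentage points was 10 in batch 1 and 25.7 in batch 2. With 2 libraries per protein, the smallest p that an exact two-sided permutation test can give is 0.333, and this was the value found (0.417 after Benjamini-Hochberg adjustment over 5 comparisons). Nothing in the labels says whether the 2 samples of a group came from separate crosses, so the spread behind these p-values may be technical. Relative to span-matched genes, the Cpr share averaged -3.32 ± 0.967 points in Simba2 and -1.77 ± 3.95 points in Simba1 libraries (SD, n = 2 each). This difference between the proteins was -1.55 points (1.93 in batch 1 and -5.02 in batch 2; exact permutation p = 1). The Simba2 lists are longer over the whole genome. Set against span-matched genes of the same library, the difference between the proteins was smaller than the spread between the Simba1 libraries.

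**Figure D1:**
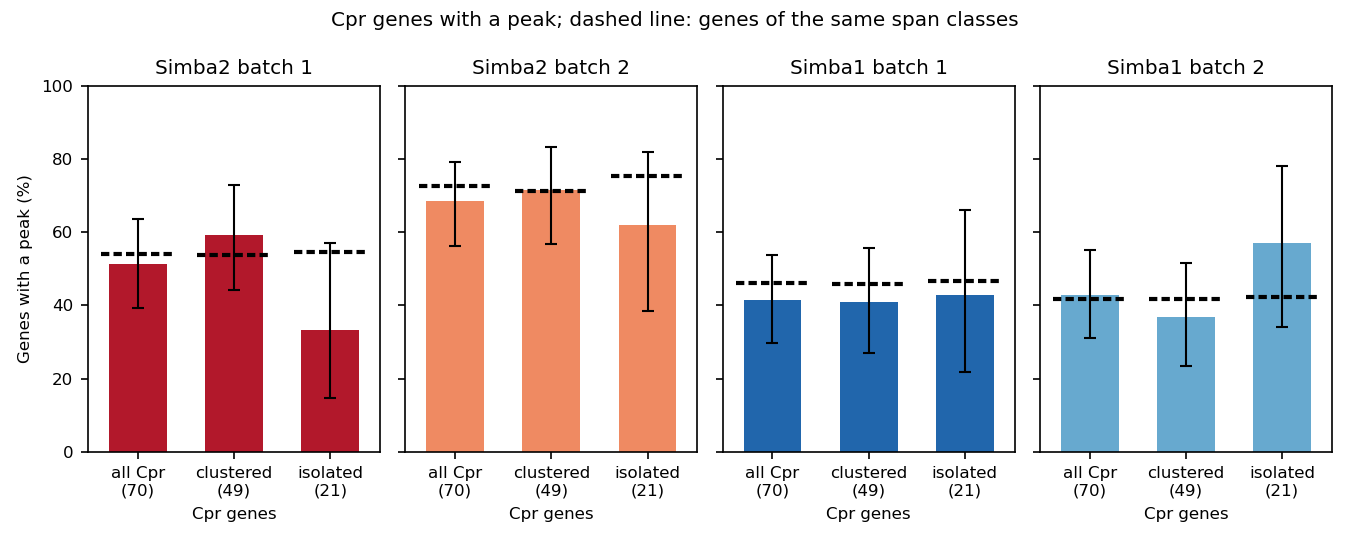
Share of Cpr genes with a peak (%, bars) in each library for all 70, the 49 clustered and the 21 isolated genes, with 95% exact intervals; the dashed lines mark genes of the same span classes. The isolated genes of Simba2 batch 1 stand at 33.3% against a dashed line at 54.7%, and those of Simba1 batch 2 at 57.1% against 42.2%.

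Counts of Cpr genes with stronger peaks were at or under those of span-matched genes, apart from Simba1 batch 2 at the stricter limit. At q of 0.05 or lower, 26 Cpr genes had a peak in Simba2 batch 1 (37.1% of Cpr, 37.5% of span-matched and 43% of all genes) and 35 in Simba2 batch 2 (50.0% of Cpr, 56.4% of span-matched and 62.7% of all genes). For Simba1 the counts were 17 in batch 1 (24.3% of Cpr, 33.5% of span-matched and 38.7% of all genes) and 15 in batch 2 (21.4% of Cpr, 22.0% of span-matched and 26.8% of all genes). At q of 0.001 or lower, 12 Cpr genes remained in Simba2 batch 1, or 17.1%, against 19.2% of span-matched and 23.5% of all genes. In Simba2 batch 2 there were 17, or 24.3%, against 33.3% of span-matched and 39.4% of all genes. In Simba1 batch 1 there were 5, or 7.14%, against 16.4% of span-matched and 20.6% of all genes. In Simba1 batch 2 there were also 5, or 7.14%, against 6.16% of span-matched and 8.35% of all genes. At this limit the interval of the Cpr share in Simba1 batch 1 ended at 15.9%, just under the span-matched value. In the other libraries the interval held that value. These intervals treat genes of a library as independent and cover counting error only, so the gap in Simba1 batch 1 was not tested.

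Once present, peaks at Cpr genes resembled the rest of their lists in size. There were 44 distinct peaks in Simba2 batch 1, 80 in Simba2 batch 2, 28 in Simba1 batch 1 and 43 in Simba1 batch 2. Their median fold enrichment was 2.84, 2.51, 2.70 and 2.69 in that order, against 2.79, 2.45, 2.95 and 2.67 for all peaks on the arms. The highest folds at Cpr genes were 5.61, 6.85, 4.80 and 4.26. Peaks with q of 0.05 or lower made up 54.5%, 56.3%, 57.1% and 41.9% of them, against 53.4%, 57.3%, 60.5% and 42.0% on the arms. The summit lay within a Cpr span for 23 of 44, 38 of 80, 12 of 28 and 20 of 43 peaks, and the others lay in the flanks. Another gene's window was touched by 15, 41, 13 and 21 of the peaks, and 4, 9, 3 and 3 peaks counted for a pair of Cpr genes.

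Counted over DNA rather than genes, the Cpr windows came to 277 kb in 50 stretches. Peaks covered 6.22% of them in Simba2 batch 1, 12.1% in Simba2 batch 2, 3.94% in Simba1 batch 1 and 6.22% in Simba1 batch 2. Over the windows of all genes, the covered shares were 7.91%, 12.7%, 6.19% and 6.17% in that order. Coverage of the Cpr windows was thus under that of all gene windows in 3 of 4 libraries, with the widest gap in Simba1 batch 1.

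Peaks at single Cpr genes came and went between libraries. Of the 70 genes, 7 had a peak in no library, 20 in 1, 14 in 2, 21 in 3 and 8 in all 4. The count of 8 in all 4 libraries stands beside 12.5 expected from the span classes, and 24.1% of all genes had a peak in all 4. The count of 7 in no library stands beside 8.60 expected, and 10.1% of all genes had none. A peak in both Simba2 batches was found at 29 Cpr genes (31.4 expected; 51.3% of all genes), and one in both Simba1 batches at 12 (16.0 expected; 28.8% of all genes). Peaks in both Simba2 batches and neither Simba1 batch were found at 4 Cpr genes (4.28 expected; 5.78% of all genes). The reverse, both Simba1 batches and no Simba2 batch, was found at 0 Cpr genes (0.516 expected; 0.594% of all genes). The counts over both proteins include libraries that share a Dam control.

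**Figure D2:**
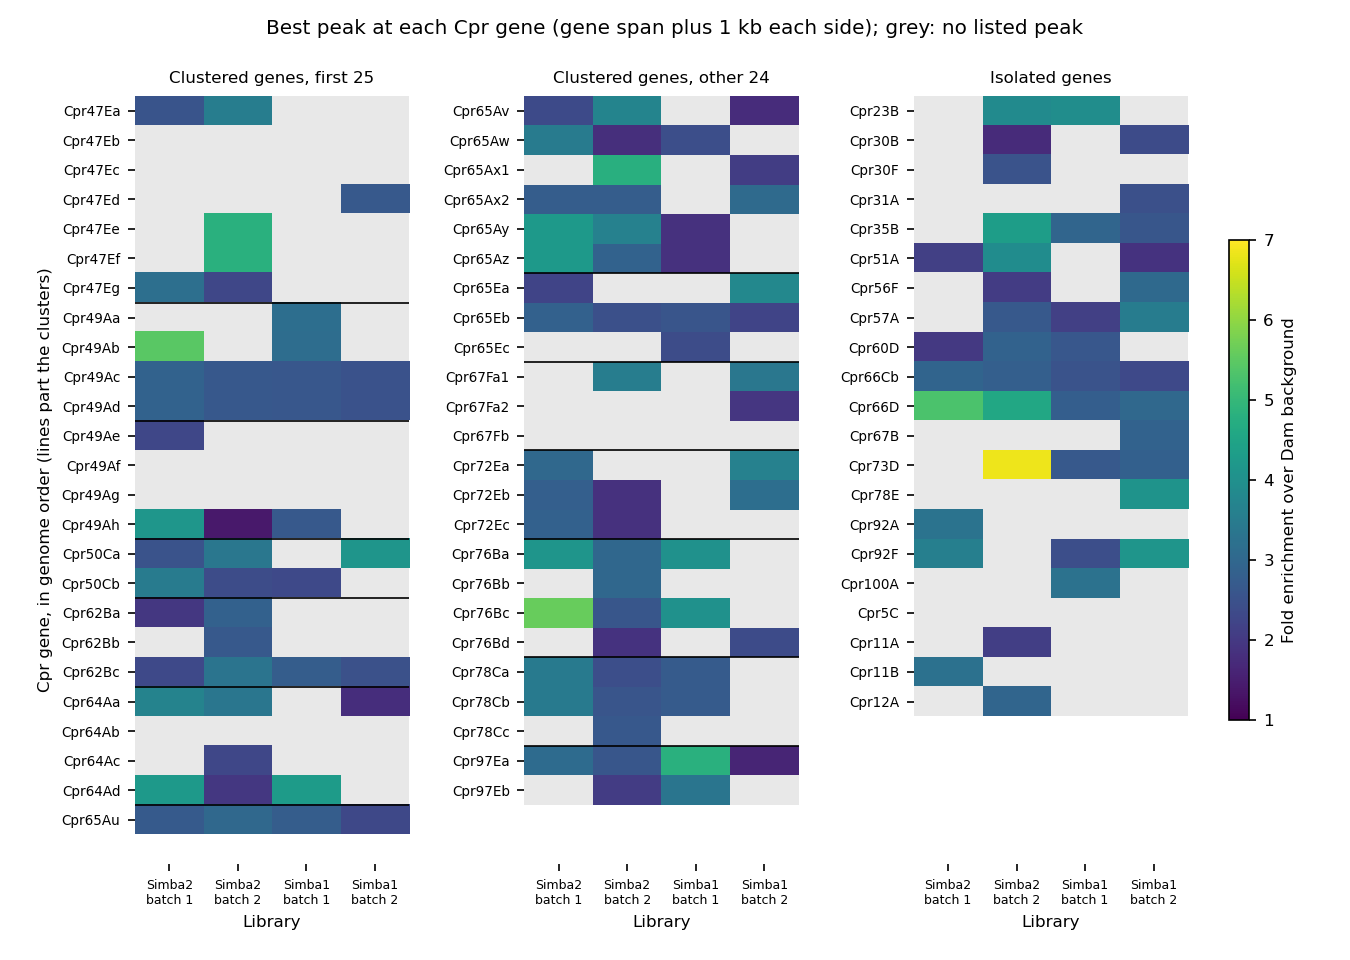
Fold enrichment of the best peak (colour, 1 to 7) at each of the 70 Cpr genes in the 4 libraries, with genes in genome order and grey where no peak was listed. Rows coloured in all 4 columns are the 8 genes with a peak in every library, and the brightest cell is Cpr73D in Simba2 batch 2 (6.85).

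A peak at the same gene in both batches was not always a peak at the same place. For Simba2, 29 Cpr genes had peaks in both batches, and peaks of the 2 batches shared bases at 18 of them (62.1%, exact interval 42.3 to 79.3). Among span-matched genes with peaks in both Simba2 batches this share was 82.2%, and among all such genes 82.6%. The 18 were 14 of 25 clustered and 4 of 4 isolated genes. For Simba1, peaks of the 2 batches shared bases at 7 of 12 genes (58.3%, exact interval 27.7 to 84.8), against 60.0% of span-matched genes and 60.9% of all genes with peaks in both batches. The difference from span-matched genes was not tested in either protein, and genes that share a peak, such as Cpr49Ac and Cpr49Ad, count it each, which makes these intervals too narrow. Merged over the 4 lists, the Cpr windows held 134 regions. Of these, 93 (69.4%) were in a single list, 26 (19.4%) in 2 lists, 10 (7.46%) in 3 and 5 (3.73%) in 4. For all regions on the arms these shares were 58.3%, 24.1%, 13.1% and 4.49%.

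The 5 regions shared by all 4 lists lay at 6 Cpr genes. Only the region at Cpr66D lay in a Cpr span, and the other 4 lay 207 to 664 bp outside one. Cpr66D is an isolated gene on 3L (8640439 to 8643584) whose window touched no other gene. Its best peak had a fold of 5.30 in Simba2 batch 1 (q = 1.57e-11), 4.59 in Simba2 batch 2 (q = 1.04e-06), 2.79 in Simba1 batch 1 (q = 0.00570) and 3.03 in Simba1 batch 2 (q = 0.000976). Both Simba2 folds were higher than both Simba1 folds, but folds come from separate lists and were not tested. The shared region (8642625 to 8643145) lay near the right end of the span, and its 4 peaks had 284 bp in common. In Simba2 batch 2 the best peak lay elsewhere in the gene, and the peak at the shared region had a fold of 3.50. Cpr66D had the highest mean rank of the family: its best peaks stood at the percentile 99.3, 93.0, 64.6 and 90.8 of their lists by q, in the order of libraries used above.

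Cpr66Cb, isolated on 3L (8336672 to 8338595), came next. The genes CG34461 and CG34462, which once bore the symbol Cpr66Ca, are not among the 70, and the nearer ends 6434 bp from it, within the reach of the cluster rule. Its best peak had folds of 2.92 and 2.82 in the Simba2 libraries (batches 1 and 2) and 2.55 and 2.32 in the Simba1 libraries. The folds were close to one another, and the weakest of them had a q of 0.0108. Its 4 best peaks shared 309 bp (8338928 to 8339236), starting beyond the end of the Cpr66Cb span. The summits of all 4 lay inside the span of Pex2, a gene of peroxisome assembly, so these peaks need not belong to Cpr66Cb. The region shared by all 4 lists also lay within 1 kb of Prim1, which encodes a primase subunit. Both Simba1 lists also held a peak of higher q with its summit in the Cpr66Cb span. Its folds were 2.33 (batch 1, q = 0.234) and 2.88 (batch 2, q = 0.0345). These peaks overlapped (8337684 to 8338147), and neither Simba2 list had a peak there. Cpr66D and Cpr66Cb were the 2 Cpr genes with a peak of q of 0.05 or lower in all 4 libraries. At q of 0.001 or lower, 0 Cpr genes had a peak in all 4 libraries and 3 had one in 3 libraries.

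The other 6 genes with a peak in all 4 libraries were clustered. Cpr65Au, the leftmost Cpr gene of the 65A array on 3L, had best folds of 2.70 and 3.02 in Simba2 and 2.77 and 2.31 in Simba1 libraries (batches 1 and 2). The region in common (6132651 to 6133193) lay 542 bp from its span and overlapped Lcp65Ag2, a larval cuticle protein gene of the same array; the Simba1 batch 2 peak there had a fold of 1.47 and q of 0.746. Cpr65Eb had best folds of 2.86 and 2.45 in Simba2 and 2.58 and 2.23 in Simba1 libraries. Its region in common (3L, 7089451 to 7090113) lay 664 bp from the span, with 499 bp shared by the 4 peaks and a q of 0.898 in Simba1 batch 2. In both cases 3 libraries had peaks with q under 0.01 and Simba1 batch 2 did not.

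Cpr49Ac and Cpr49Ad on 2R shared each of their best peaks, so they count as 1 observation. The region between them (12390399 to 12390880) had folds of 2.89 and 2.58 in Simba2 and 2.62 and 2.50 in Simba1 libraries, all with pileups of 8 reads or fewer. Only its Simba2 batch 2 peak had a q under 0.05 (0.0369). Cpr97Ea, on 3R, had best folds of 3.09 and 2.61 in Simba2 and 4.80 and 1.63 in Simba1 libraries, and the last of these had a q of 0.849. Cpr62Bc, on 3L, had best folds of 2.32 and 3.31 in Simba2 and 2.78 and 2.48 in Simba1 libraries, with q of 0.14 and 0.000362 in Simba2 and 0.0348 and 0.0744 in Simba1. At these 2 genes no stretch was covered by all 4 lists, so a peak in every library did not mean one site.

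The 4 genes with peaks in both Simba2 batches and neither Simba1 batch were all clustered. From their spans, 2.92 clustered and 1.36 isolated genes were expected. Cpr47Ea had folds of 2.56 (q = 0.0541) in batch 1 and 3.54 (q = 0.000553) in batch 2, at overlapping peaks (11253607 to 11253890 on 2R) beside the gene. Cpr47Eg, in the same cluster, had folds of 3.20 and 2.29, Cpr62Ba had 1.97 and 2.87, and Cpr72Ec had 2.85 and 1.86. At these last 3 genes the peaks of the 2 batches did not overlap, and 1 peak of each pair had a q above 0.1. Cpr47Ea was therefore the only one of the 4 with a repeated site.

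Among isolated genes, Cpr73D, Cpr35B and Cpr51A ranked after Cpr66D and Cpr66Cb, and each lacked a peak in 1 library. Cpr73D (3L, 16939100 to 16957689), the longest Cpr gene at 18590 bp, had no peak in Simba2 batch 1 and a best fold of 6.85 in Simba2 batch 2 (q = 8.19e-11). In Simba1 its best peaks had folds of 2.68 (batch 1) and 2.83 (batch 2), at other places in or beside the gene. Another Simba1 batch 2 peak had a fold of 2.92 but a higher q (0.0634). A weaker Simba1 batch 2 peak (16943162 to 16943433, fold 2.74, q = 0.0892) lay inside the strong Simba2 batch 2 peak (16942970 to 16943470). The highest fold at this gene thus came from Simba2 batch 2, while Simba2 batch 1 had no listed peak there. Cpr35B (2L, 14424315 to 14425189) had no peak in Simba2 batch 1, a fold of 4.33 in Simba2 batch 2 and folds of 2.95 and 2.61 in Simba1 batches 1 and 2. Its 3 best peaks shared 14423866 to 14424181, next to the gene, and no other gene touched its window. Cpr51A (2R, 14512559 to 14515211) had folds of 2.14 and 3.92 in Simba2 batches 1 and 2, no peak in Simba1 batch 1 and a fold of 1.87 in Simba1 batch 2. Its window also touched CG30197 and Asx, a chromatin gene of the Polycomb and trithorax class. The summit of its best peak in Simba2 batch 2 lay in the spans of both Cpr51A and CG30197.

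The 7 genes with no listed peak in any library were Cpr49Af, Cpr47Ec, Cpr47Eb, Cpr49Ag, Cpr5C, Cpr64Ab and Cpr67Fb. Their spans ran from 521 bp (Cpr67Fb) to 1114 bp (Cpr49Af), and 6 of them were clustered (6.35 expected from their spans). No listed peak does not mean no binding, since the number of GATC sites and the read depth in these windows were not analysed here.

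Whether a gene had Cpr neighbours went with opposite differences for the 2 proteins. In Simba2 batch 1, 29 of 49 clustered genes had a peak (59.2%, exact interval 44.2 to 73.0), against 7 of 21 isolated genes (33.3%, 14.6 to 57.0). In Simba2 batch 2, 35 clustered genes (71.4%) and 13 isolated genes (61.9%) had one. In Simba1 batch 1, 20 clustered genes (40.8%) and 9 isolated genes (42.9%) had one. In Simba1 batch 2, 18 clustered genes (36.7%) and 12 isolated genes (57.1%) had one. The differences, clustered minus isolated, were 25.9 and 9.52 points in Simba2 and -2.04 and -20.4 points in Simba1 (batches 1 and 2). The clustered share was the higher one in both Simba2 libraries and the lower one in both Simba1 libraries, but the intervals of the 2 classes overlapped in each library.

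These differences averaged 17.7 ± 11.5 points in Simba2 and -11.2 ± 13.0 points in Simba1 libraries (SD, n = 2 each). The 2 means lay 28.9 points apart, with 27.9 in batch 1 and 29.9 in batch 2 (exact two-sided permutation p = 0.333, the smallest possible; 0.417 adjusted over 5 comparisons). Set against span-matched genes, the clustered genes differed by 2.70 ± 3.81 points in Simba2 and -4.93 ± 0.0362 points in Simba1 libraries. The isolated genes differed by -17.4 ± 5.67 points in Simba2 and 5.58 ± 13.2 points in Simba1 libraries. The gap between the proteins therefore lay more in the isolated genes (-23.0 points) than in the clustered genes (7.63 points), with the same exact p of 0.333 for each. With a gap of at most 5 kb, 42 genes were clustered and 28 isolated, and the mean difference was 1.79 points for Simba2 (8.33 in batch 1 and -4.76 in batch 2) and -16.1 points for Simba1, so that the direction in Simba2 batch 2 turned. The 7 genes that then changed class were Cpr47Eg, Cpr49Ah, Cpr50Ca, Cpr50Cb, Cpr62Bc, Cpr65Au and Cpr76Bd. With the former Cpr66Ca genes counted, an alternative added after the data were seen, Cpr66Cb became clustered, and the differences were 29.6 and 9.23 points in Simba2 and 2.31 and -16.5 points in Simba1 (batches 1 and 2), so that the direction in Simba1 batch 1 turned.

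Counts over both batches followed the same split. These counts, the coverage and the shares by arm come from the same peaks and gene classes, so they are not separate evidence. Peaks in both Simba2 batches were found at 25 clustered genes (21.7 expected from their spans) and 4 isolated genes (9.69 expected). Peaks in both Simba1 batches were found at 6 clustered genes (11.1 expected) and 6 isolated genes (4.85 expected). By coverage, clustered windows against isolated windows held 7.92% against 2.88% in Simba2 batch 1 and 12.4% against 11.6% in Simba2 batch 2. In Simba1 they held 3.78% against 4.24% in batch 1 and 5.44% against 7.76% in batch 2. Of the 49 clustered genes, 30 lie on 3L and 17 on 2R, beside 5 and 4 isolated genes. Within 3L, 19 of 30 clustered against 2 of 5 isolated genes had a peak in Simba2 batch 1, and 24 against 3 in Simba2 batch 2. In Simba1, 12 clustered against 3 isolated genes of 3L had one in batch 1 and 13 against 5 in batch 2. The clustered share on 3L was thus the higher one in both Simba2 libraries and the lower one in both Simba1 libraries. Span-matched shares on 3L were 51.7%, 68.9%, 43.6% and 39.8% for the clustered genes (Simba2 batches 1 and 2, Simba1 batches 1 and 2). For the isolated genes they were 61.0%, 79.4%, 53.4% and 50.0%. From span, a lower clustered share was therefore expected on 3L in each library. Within 2R, 9 of 17 clustered against 2 of 4 isolated genes had a peak in Simba2 batch 1, and 9 against 4 in Simba2 batch 2. In Simba1, 6 clustered against 2 isolated genes of 2R had one in batch 1 and 4 against 3 in batch 2. On 2R the clustered share was well under the isolated share in Simba2 batch 2, unlike on 3L, and with so few isolated genes per arm a single gene moves these shares widely. Taken by arm, the Cpr share with a peak was 60.0%, 77.1%, 42.9% and 51.4% on 3L (Simba2 batches 1 and 2, Simba1 batches 1 and 2), against 53.1%, 70.4%, 45.0% and 41.2% of span-matched genes. On 2R it was 52.4%, 61.9%, 38.1% and 33.3%, against 57.0%, 75.5%, 49.0% and 44.5%. On X, where all 4 Cpr genes are isolated, 1, 2, 0 and 0 had a peak, against 50.8%, 70.9%, 42.4% and 38.0% of span-matched genes. All 5 Cpr genes of 2L are also isolated, and 0, 4, 2 and 3 had a peak. Span-matched shares on 2L were 49.8%, 68.7%, 41.8% and 37.9%. On 3R, 3, 2, 4 and 2 of 5 had one, against 55.8%, 80.6%, 47.9% and 41.9%. No Cpr gene of 2L or X is clustered, so over all arms neighbour class and arm are partly tied. Their parts in the difference were not told apart.

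**Figure D3:**
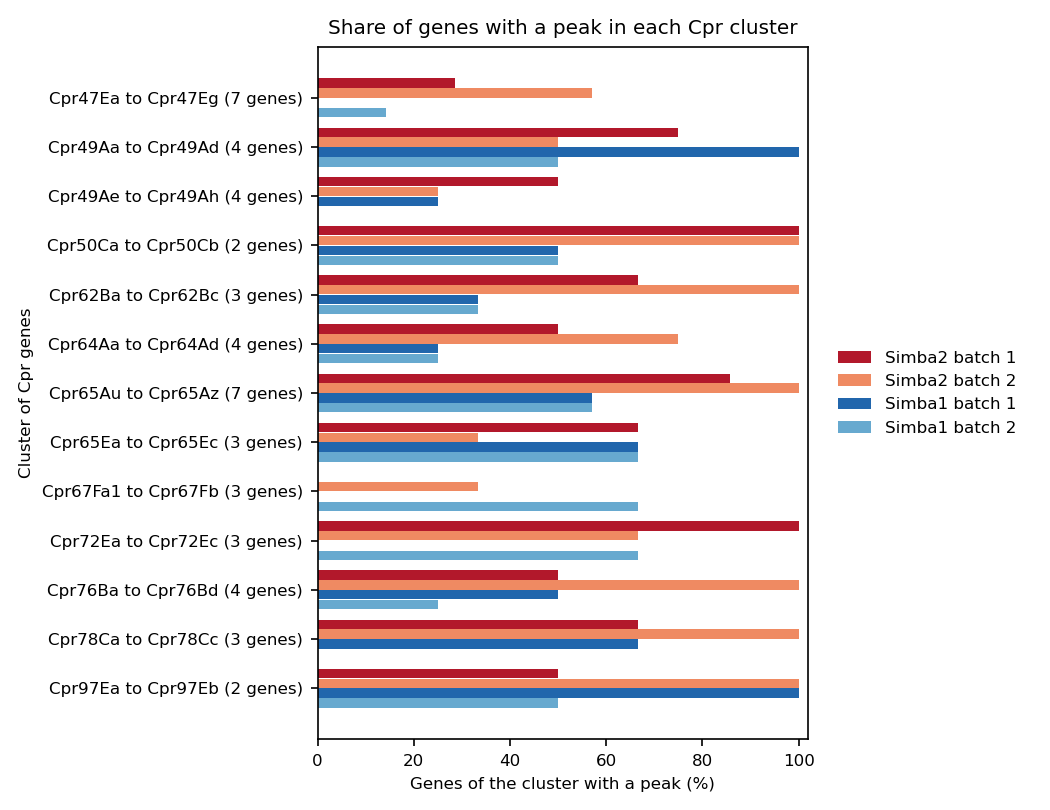
Share of the genes of each of the 13 Cpr clusters that had a peak (%, bars), by library; a missing bar is a share of 0. Simba2 bars reach 100% in at least 1 batch at 7 clusters, and the cluster Cpr47Ea to Cpr47Eg has no Simba1 batch 1 bar.

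The clusters differed widely. A peak at 1 or more genes was found in 12 of 13 clusters in Simba2 batch 1, 13 in Simba2 batch 2, 10 in Simba1 batch 1 and 11 in Simba1 batch 2. Every gene had a peak in 2, 6, 2 and 0 clusters in that order. Over all genes, 58.9%, 77.4%, 51.1% and 46.6% had a peak. Groups of other neighbouring genes were not counted, so these cluster counts have no like background. Each cluster given equal weight, a setting added after the data were seen, the mean share per cluster was 60.7%, 72.3%, 44.1% and 38.8%, against 33.3%, 61.9%, 42.9% and 57.1% for isolated genes.

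The 2 clusters of 7 genes were unlike each other. At Cpr47Ea to Cpr47Eg (2R, 11251751 to 11278445), peaks were found at 2 genes in Simba2 batch 1, 4 in Simba2 batch 2, 0 in Simba1 batch 1 and 1 in Simba1 batch 2. The strongest of them lay in Cpr47Ee (11266239 to 11266676), with a fold of 4.81, a pileup of 36 reads and q of 1.97e-12 in Simba2 batch 2, the percentile 99.2 of that list. No other library had a peak at Cpr47Ee or at Cpr47Ef, its neighbour. At Cpr65Au to Cpr65Az (3L, 6131242 to 6161589), peaks were found at 6, 7, 4 and 4 genes in the same order. This stretch also holds 14 other genes, 11 of them Lcp65A and Acp65A cuticle genes, and a peak often touched one of those as well. Cpr65Ay and Cpr65Az shared a peak between them with a fold of 4.26 (q = 1.66e-06) in Simba2 batch 1 and 1.86 (q = 0.325) in Simba1 batch 1. Cpr65Ax1 and Cpr65Ax2 are near-identical copies, as are Cpr67Fa1 and Cpr67Fa2; how reads that map to several places were treated is not given in the sources used here, so their separate values are uncertain.

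**Figure D4:**
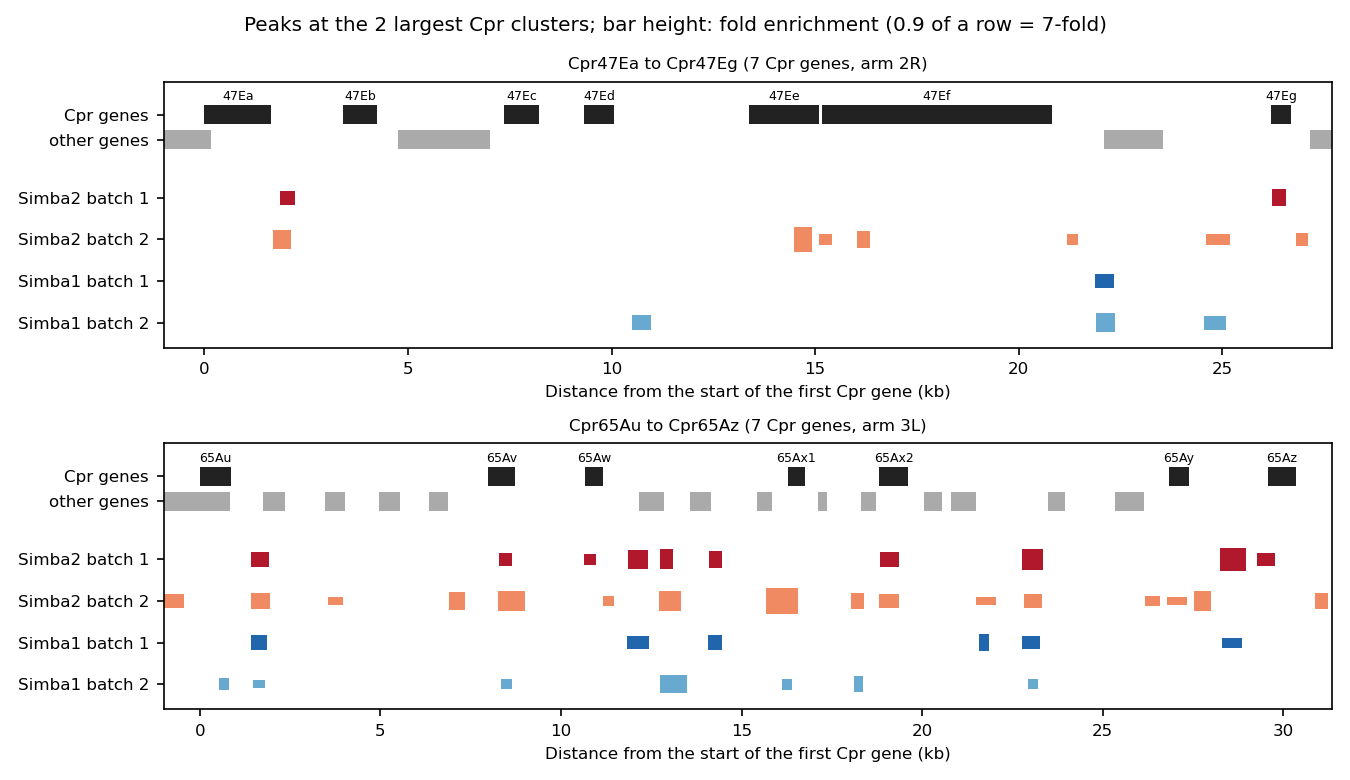
Peaks of the 4 libraries (bars, height by fold enrichment) along the 2 largest Cpr clusters, with Cpr genes in black, other genes in grey and the distance from the start of the first Cpr gene in kb. Peaks fall at 0 to 4 of 7 Cpr genes per library over Cpr47Ea to Cpr47Eg and at 4 to 7 of 7 over Cpr65Au to Cpr65Az.

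The 4 clusters of 4 genes gave a similar spread. At Cpr49Aa to Cpr49Ad, peaks were found at 3, 2, 4 and 2 genes (Simba2 batches 1 and 2, then Simba1 batches 1 and 2), and at the adjoining Cpr49Ae to Cpr49Ah at 2, 1, 1 and 0. At Cpr64Aa to Cpr64Ad, which lie inside the gene CG43367, peaks were found at 2, 3, 1 and 1 genes. There Cpr64Ad had folds of 4.22 (q = 2.15e-07) and 1.98 in Simba2 batches 1 and 2 and 4.30 (q = 2.45e-07) in Simba1 batch 1, with 4215454 to 4215718 on 3L in common. At Cpr76Ba to Cpr76Bd, peaks were found at 2, 4, 2 and 1 genes. Cpr76Ba had folds of 4.12 in Simba2 batch 1 and 4.04 in Simba1 batch 1 at almost the same position, and Cpr76Bc had 5.61 and 4.04 in these 2 libraries. At these 3 genes the high values came from the 2 libraries of batch 1, which share a Dam control.

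Other cuticle genes were compared from lists written with earlier results of these data known. The 57 genes of other cuticle families (17 Lcp, 7 Ccp84A and 26 Twdl genes among them) had a peak at 24, 38, 15 and 14 genes (Simba2 batches 1 and 2, Simba1 batches 1 and 2). The shares were 42.1%, 66.7%, 26.3% and 24.6%, against 48.6%, 67.2%, 40.6% and 36.6% of span-matched genes. These genes were under the span-matched share in both Simba1 libraries by more than 12 points, a gap not tested. Those with peaks in all 4 libraries and the highest ranks were Lcp65Ac, Lcp65Ag2 and Lcp65Ad, all in the 65A array. Lcp65Ac had folds of 3.73 and 3.66 in Simba2 and 2.80 and 3.40 in Simba1 libraries, and Lcp65Ad shared 3 of these 4 peaks.

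Of 29 chitin genes, peaks were found at 18, 27, 20 and 15, or 62.1%, 93.1%, 69.0% and 51.7%, against 71.3%, 88.4%, 64.0% and 59.3% of span-matched genes. Cda5 and obst-E, which encode a chitin deacetylase and a chitin-binding protein, and kkv, the epidermal chitin synthase, ranked highest, with Cda5 at folds of 3.99 and 3.57 in Simba2 and 4.31 and 2.28 in Simba1 libraries. Of 9 tanning genes, peaks were found at 6, 9, 6 and 6, with stw, amd and y in all 4 libraries; span-matched shares of 75.3%, 92.0%, 67.2% and 60.8% make these counts near those of genes of like span. Of 13 regulators of cuticle genes, peaks were found at 11, 13, 11 and 12. Their median span of 41689 bp matches shares of 94.4%, 98.4%, 90.3% and 90.2% at span-matched genes, so the counts are near those of other long genes. Among them were ftz-f1 and EcR, of the ecdysone response, and grh, the source of the driver and itself a regulator of epidermal genes. The best peak at grh had folds of 4.60 and 6.66 in Simba2 and 5.72 and 4.65 in Simba1 libraries, above those of Cpr66D except in Simba2 batch 1. The 2 genes are not alike in span: grh covers 41689 bp and had 8, 13, 6 and 2 peaks. Cpr66D covers 3146 bp and had 1, 3, 1 and 1, so the best peak was drawn from fewer.

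Of 204 other genes within 10 kb of a Cpr gene, 13 of them from other cuticle families, 108, 159, 80 and 94 had a peak. The shares were 52.9%, 77.9%, 39.2% and 46.1%, against 59.6%, 77.3%, 51.7% and 47.5% at span-matched genes. The neighbours were under the span-matched share in 3 of 4 libraries, with the widest gap in Simba1 batch 1, and just above it in Simba2 batch 2. In Simba1 batch 1 the Cpr genes themselves differed from span-matched genes by -4.57 points.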

How the data were processed

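DamID libraries of larval brain NSCs were sequenced as paired reads of 250 bp, per the labels' protocols. Per the submitters' processing notes, bcl2fastq 2.19.0.316, FastQC, Bowtie2 and ChIPseeker were used with dm6; trimming and alignment settings were not found in the labels. The authors ran MACS 3.0.0, per the file headers, once per fusion library with the same batch's Dam sample as control, with a q limit of 1, an effective genome size of 2.91e+09 bp (far above that of the fly), single-read mode and at most 1 tag per position. The deposited pileup is a coverage signal, read at each summit and scaled to the smaller library of the pair. The deposited -log10 p and q values and the fold enrichment, a ratio of pileup to the local Dam background, are from the authors' MACS run.

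From these lists, peaks were assigned to gene spans plus 1000 bp each side (Python 3.11.15, pandas 2.3.3, scipy 1.17.1). Gene spans came from the RefSeq Release 6 table, which holds no strand, exons or sequence, so promoters, GATC sites and sequences were not analysed here. Genes were matched on 10 classes of span; clusters used single linkage at 10 kb. Assignment and matching were tested on simulated data. The 4 libraries, not genes, were the replicates: proteins were compared by exact two-sided permutation with Benjamini-Hochberg adjustment over 5 comparisons. The batches pair the proteins through a shared Dam control: over 13296 bins of 10 kb, deviations of same-batch libraries from their protein's mean correlated at r = 0.251 (a description across bins), so within-batch values are given. Alternatives changed the q limit, list length, window, overlap rule, span classes, background genes and cluster rule. Named genes were those with peaks in all 4 libraries, up to 6 with peaks in each batch of 1 protein and in no library of the other, the 5 highest isolated genes, up to 6 of the longest genes with no peak (Cpr67Fb, the seventh, was added after its values were seen), the clusters with most genes (4 of which tied for the last places), up to 3 genes of each other list and grh; ranks are mean percentiles of the best peak's q. The genes singled out in the cluster paragraphs (Cpr47Ee, Cpr47Ef, Cpr64Ad, Cpr65Ay, Cpr65Az, Cpr76Ba, Cpr76Bc and the copies) were chosen after their values were seen. The members, the lists and the tests were chosen with earlier results of these data known. List entries for the Cpap3 family and Dat had no match in the table.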

Additional observations from a re-analysis of the deposited data

Results flagged for a closer look

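The difference between clustered and isolated Cpr genes ran opposite ways for the 2 proteins: both Simba2 libraries had the higher share at clustered genes and both Simba1 libraries at isolated genes, and the means lay 28.9 percentage points apart. The differences were 25.9 and 9.52 points in Simba2 and -2.04 and -20.4 points in Simba1 libraries (batches 1 and 2), with an exact two-sided permutation p of 0.333, the smallest that 2 libraries against 2 can give. Over 9 alternatives that could change the values, which share their data, the difference was above 0 in 9 for Simba2 batch 1 and 6 for Simba2 batch 2, and below 0 in 7 for Simba1 batch 1 and 8 for Simba1 batch 2. With lists of equal length it was 24.5 and 6.12 points in Simba2 and -2.04 and -32.7 points in Simba1, and the means lay 32.7 points apart, against 2.38 points at q of 0.001 or lower. With the former Cpr66Ca genes counted, the difference in Simba1 batch 1 was 2.31 points. Isolated genes number 21, so 1 gene moves their share by several points. All Cpr genes of 2L and X are isolated, so neighbour class and arm are partly tied.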

How the results depend on the processing

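The higher share of Cpr genes with a peak in Simba2 than in Simba1 (17.9 points) kept its direction in every alternative, from 8.57 points with lists of equal length to 20.7 at q of 0.05 or lower, and was 10 to 25.7 with 1 batch left out. With the batch as a replicate block the difference was 17.9 points (exact sign permutation p = 0.5, the smallest possible), and no call changed. Over all genes the share with a listed peak was also higher in Simba2 (58.9% and 77.4%) than in Simba1 libraries (51.1% and 46.6%). The direction is thus not particular to the Cpr genes. Counts of genes moved with the q limit, the window and the batches used. Genes with a peak in all 4 libraries (8) numbered 2 at q of 0.05, 0 at 0.001, 3 without flanks, 18 with 2 kb, 5 with each peak given to its nearest gene and 21 to 22 with 1 batch left out. For both Simba2 batches (29) the numbers were 14, 6, 13 without flanks, 18 by nearest gene, 19 with equal lists and 36 to 48 with 1 batch left out. For both Simba1 batches (12) they were 4, 0, 6 without flanks, 23 with 2 kb and 29 to 30 with 1 batch left out. For no library (7) they were 17, 43, 20 without flanks, 4 with 2 kb, 20 by nearest gene, 12 with equal lists and 14 to 26 with 1 batch left out. Leaving out a batch asks for fewer libraries per gene, which alone moves these counts. The mean share minus that of span-matched genes was -5.51 points at q of 0.001 and also without flanks and 1.97 by nearest gene in Simba2 (-3.32), and 3.40 by nearest gene in Simba1 (-1.77); the cause was not tested. Clustered minus isolated was 2.38 points at q of 0.001 and 1.79 with a 5 kb gap in Simba2 (17.7), and 9.52 to 25.9 with 1 batch left out; in Simba1 (-11.2) it was 0 at q of 0.001, -7.12 with the former Cpr66Ca genes counted and -20.4 to -2.04 with 1 batch left out. Pileups of about 10 reads at most peaks, 2 libraries per protein and missing GATC counts limit what can be told of a single gene.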
